A study of Homo sapiens with 2 samples.

Results

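The AP-1 transcription factor genes were followed in K562 cells, an erythroleukemia-like line derived from chronic myeloid leukemia, in which the cohesin subunit gene SMC1A had been repressed. They were taken by symbol from the 62700 genes of the deposited table: 4 FOS genes (FOS, FOSB, FOSL1 and FOSL2), 3 JUN genes (JUN, JUNB and JUND), and ATF3 and BATF3, 9 in all. All 9 had a row. Of these, 5 had at least 100 counts summed over both libraries (JUN, JUNB, JUND, FOSL1 and ATF3), the minimum used below for sorting genes by fold. The other 4 had fewer: FOS, FOSB, FOSL2 and BATF3.

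The SMC1A library came from cells with a guide RNA against SMC1A, and the control library from cells with a control guide, 1 library each. Both sets of cells are titled WT and carry the genotype label E50_dCas9-KRAB, of which E50 is not explained. dCas9-KRAB is a nuclease-dead Cas9 joined to a repressor domain that silences the promoter named by its guide. Guides came by lentivirus with a blue fluorescent marker, and bright cells were sorted. Puromycin at 1 µg/ml was present between day 2 and day 6. Neither the day of harvest nor whether the dCas9-KRAB line was a single clone is stated by the labels. With 1 library per guide, no difference has a replicate check and no test across samples was possible. All intervals are exact 95% intervals that cover counting error only.

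AP-1 is a dimer of basic leucine zipper (bZIP) proteins. JUN proteins pair with each other or with FOS proteins, which cannot pair among themselves, and ATF3 and BATF3 pair with JUN proteins. The dimers bind the TPA response element or the related cyclic AMP response element. Many of these genes are immediate early genes, switched on within minutes of a growth or stress signal through MAP kinases, and their mRNAs are short-lived. In K562 cells phorbol ester, a classical inducer of AP-1, drives megakaryocytic differentiation.

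The promoters of JUN, ATF3, JUNB and JUND are shown because these genes spanned the whole range of differences among the members with at least 100 counts. FOSL1, the other such member, had no promoter entry and could not be shown, and BATF3 had none either. Each run comes from the 250 bases before the RefSeq start (GRCh38.p14), as far as they lie outside the gene's span in GENCODE release 29, written 5′ to 3′ along the gene. The JUN window lies inside that span, and 30 bases around its match are shown. Capitals mark matches to the cyclic AMP response element-like motif TGACNTCA.
JUN promoter, chr1:58784096-58784125, minus strand: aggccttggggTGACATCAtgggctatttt
ATF3 promoter, chr1:212565157-212565333, plus strand: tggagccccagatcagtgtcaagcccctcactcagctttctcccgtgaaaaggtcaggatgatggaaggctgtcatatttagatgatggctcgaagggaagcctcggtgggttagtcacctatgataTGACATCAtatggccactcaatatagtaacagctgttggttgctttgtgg
JUNB promoter, chr19:12791236-12791485, plus strand: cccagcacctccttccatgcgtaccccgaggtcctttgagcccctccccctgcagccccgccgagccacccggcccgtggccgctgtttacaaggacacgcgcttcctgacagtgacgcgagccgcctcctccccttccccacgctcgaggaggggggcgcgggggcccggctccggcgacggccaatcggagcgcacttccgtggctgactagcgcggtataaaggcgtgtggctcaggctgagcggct
JUND promoter, chr19:18281623-18281872, minus strand: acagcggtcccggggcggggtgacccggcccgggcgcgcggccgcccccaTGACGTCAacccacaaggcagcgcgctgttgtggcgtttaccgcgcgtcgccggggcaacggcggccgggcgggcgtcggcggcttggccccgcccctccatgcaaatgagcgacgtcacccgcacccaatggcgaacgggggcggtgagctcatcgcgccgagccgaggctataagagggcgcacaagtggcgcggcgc

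JUN held TGACATCA 67 to 60 bases before its start, ATF3 held the same letters 123 to 116 bases before, and JUND held TGACGTCA 200 to 193 bases before. The ATF3 window belongs to the outer of 2 listed starts, and the inner start had no match. JUNB had no match to these letters in its window. TGACNTCA occurred on either strand in 6.87% of the 35116 promoter windows of the same length. The TPA response element TGANTCA, in 6.57% of windows, occurred in no window of the 7 members that had an entry. The CArG box, bound by serum response factor and found in 1.16% of windows, did not occur in them either. Bases farther than 250 before a start were not searched, so neither absence covers more distant sites. GC boxes (GGGCGG, in 42.6% of windows) occurred in 6 of the 7, all but JUNB. No 2 matches of different motifs overlapped.

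SMC1A had 288 counts in the SMC1A library against 8077 in the control library, or 16.3 and 460.4 CPM, which left 3.55% of the control level (3.14 to 3.99). CPM are counts per 1000000 of the library size scaled by TMM factors, and all ratios are SMC1A guide over control guide. The libraries held 16864207 counts with the SMC1A guide and 18349209 with the control guide. Of the 9 erythroid K562 markers all had at least 100 counts, with a summed level of 13361 CPM in the SMC1A library and 14536 CPM in the control library. HBE1 made up most of that sum in the SMC1A library (10348 CPM) but not in the control library (6755 CPM). Past 2-fold, 0 of the 9 were higher and 4 lower (TFRC, HBG1, HBZ and HBG2, from -1.41 to -1.68 as log2 ratios), and their median log2 ratio was -0.56. Over all genes with at least 100 counts, 5.12% were higher and 2.31% lower past 2-fold. The 5 lymphoid markers summed to 20.1 and 16.1 CPM, most of it CD3D, with MS4A1 at 0 in both. The 5 monocyte and granulocyte markers summed to 24.7 and 18.4 CPM, nearly all LYZ, with MPO and ELANE at 0 in both. The 5 fibroblast and epithelial markers summed to 130.4 and 177.5 CPM, most of it EPCAM, with KRT5 at 0 in both. Within them COL1A1 was higher, with 233 counts in the SMC1A library and 64 in the control library (log2 ratio 1.84, interval 1.45 to 2.28). Their part in the results below was not tested.

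None of the 5 members with at least 100 counts differed by 2-fold in either direction, while JUN and ATF3 were higher by about the same factor and JUNB and FOSL1 lower. Among all 11319 genes with at least 100 counts, 5.12% stood at or above 2-fold and 2.31% were lower by as much. At least 1.5-fold higher were 2 of the 5, JUN and ATF3, against 12.1% of all genes. At least 1.5-fold lower was 1 of the 5, JUNB, against 9.06% of all genes. JUNB no longer passed by library totals (log2 ratio -0.50), nor did ATF3 with the trend of ratios with expression level removed (0.50). The counting interval lay wholly above no change for 2 of the 5 and wholly below it for 2, while for all genes these shares were 29.4% and 38.7%. An interval that leaves out no change was thus common among genes with at least 100 counts. No share was computed for genes matched to the depth of each member. The median log2 ratio of the 5 members was 0.00, beside -0.05 for all genes. In bulk RNA, fewer cells that express a gene and less RNA per cell cannot be told apart.

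**Figure D1:**
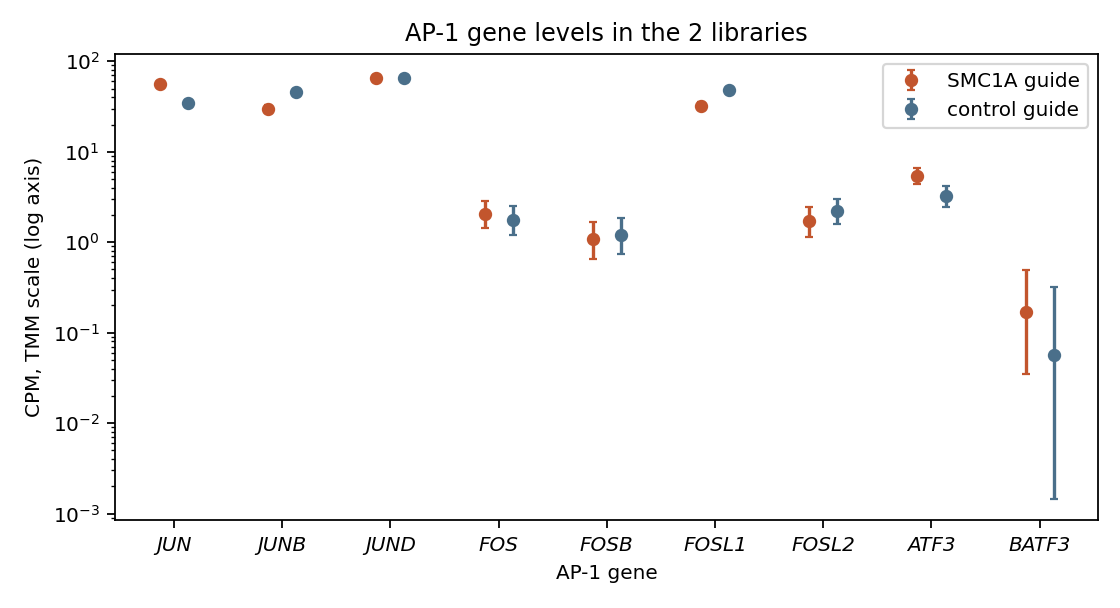
Level of each AP-1 gene in CPM on a log axis, with the SMC1A library left of the control library and bars for the exact 95% counting interval. JUN stood at 55.7 CPM with the SMC1A guide against 34.4 with the control guide, JUNB at 29.9 against 46.3, and BATF3 was at or under 3 counts in both.

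Among the JUN genes, JUN encodes c-Jun, the member with the strongest transactivation domain, whose activity is raised by the JNK kinases. JUN (ENSG00000177606.9, chr1:58780788-58784327, minus strand) is a single-exon gene. It had 982 counts in the SMC1A library and 603 in the control library, or 55.7 CPM (52.2 to 59.3) and 34.4 CPM (31.7 to 37.2). The SMC1A library was the higher, and the intervals did not overlap. JUN was 1.62-fold higher (log2 ratio 0.70, interval 0.55 to 0.84), a ratio above that of 90.3% of genes with at least 100 counts.

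JUNB (ENSG00000171223.6, chr19:12791496-12793315, plus strand), also a single exon, encodes a weaker activator that can oppose c-Jun at some promoters. It had 527 counts in the SMC1A library and 813 in the control library, or 29.9 CPM (27.4 to 32.5) and 46.3 CPM (43.2 to 49.6). Here the SMC1A library was the lower, again without overlap of the intervals. JUNB was 1.55-fold lower (log2 ratio -0.63, interval -0.79 to -0.47), and 7.61% of genes had a ratio as low or lower. In the annotation 259 exonic bases of JUNB are shared with HOOK2 on the opposite strand. HOOK2 had 550 and 462 counts (log2 ratio 0.24). The library kit preserves strand, but the labels do not say whether counting used strand.

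JUND (ENSG00000130522.6, chr19:18279760-18281622, minus strand), a single exon, encodes the JUN protein that is broadly expressed in resting cells and least dependent on growth signals. It had 1166 counts in the SMC1A library and 1159 in the control library, or 66.1 CPM in both. Its log2 ratio was 0.00 (-0.12 to 0.12), and a difference within that interval was not detectable at this depth. Scaled by library totals alone, which moved the median of all genes by 0.13, JUND was at 0.13.

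Among the FOS genes, FOSL1 was the only member with at least 100 counts. It encodes FRA-1, which lacks the transactivation domain of c-Fos and is itself switched on by AP-1 in many cell types. FOSL1 (ENSG00000175592.9, chr11:65892049-65900573, minus strand) had 571 counts in the SMC1A library and 839 in the control library, or 32.4 CPM (29.8 to 35.1) and 47.8 CPM (44.6 to 51.2). The SMC1A library was the lower and the intervals did not overlap. FOSL1 was 1.48-fold lower (log2 ratio -0.56, interval -0.72 to -0.41), just inside the 1.5-fold limit that JUNB passed on the TMM scale.

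The remaining FOS genes were scarcely expressed. FOS (ENSG00000170345.10, chr14:75278774-75282230), which encodes c-Fos, had 36 counts in the SMC1A library and 31 in the control library, or 2.04 and 1.77 CPM. Its log2 ratio of 0.20 had an interval from -0.53 to 0.95. FOSB (ENSG00000125740.15, chr19:45467995-45475179) had 19 and 21 counts, a log2 ratio of -0.14 (-1.13 to 0.81). FOSL2 (ENSG00000075426.12, chr2:28392448-28417312), which encodes FRA-2, had 30 and 39 counts, a log2 ratio of -0.38 (-1.12 to 0.34). The 3 intervals all hold no change, and those of FOSB and FOSL2 reach past 2-fold lower, so differences within those intervals were not detectable at this depth.

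ATF3 encodes a stress-induced bZIP protein that represses as a homodimer and can activate as a heterodimer with JUN proteins. ATF3 (ENSG00000162772.18, chr1:212565334-212620777, plus strand) had 95 counts in the SMC1A library and 57 in the control library, or 5.39 CPM (4.36 to 6.58) and 3.25 CPM (2.46 to 4.21). The SMC1A library was the higher, and the intervals did not overlap. ATF3 was 1.66-fold higher (log2 ratio 0.72, interval 0.24 to 1.23), above 90.8% of genes, with an interval wide enough to hold both a small difference and one past 2-fold. BATF3 (ENSG00000123685.9, chr1:212686418-212699985, minus strand), known for its part in the development of cross-presenting dendritic cells, had 3 counts in the SMC1A library and 1 in the control library. Both are at or under the floor of 3 counts (0.170 CPM with the SMC1A guide and 0.171 with the control guide), and no fold is given.

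**Figure D2:**
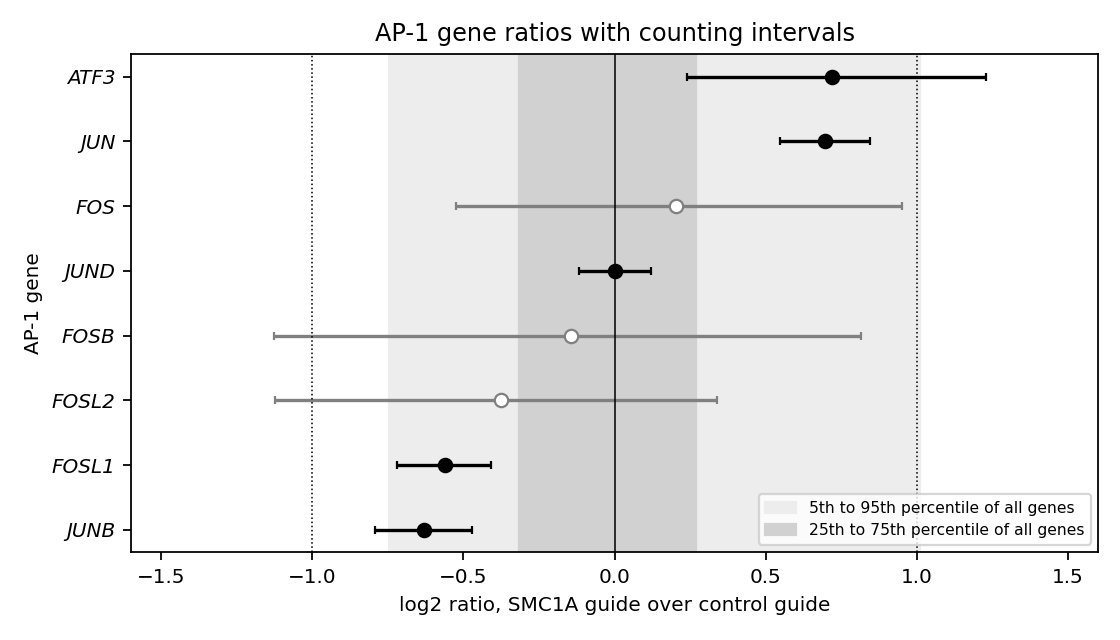
Log2 ratio of 8 AP-1 genes with exact 95% counting intervals. Filled points have at least 100 summed counts and open points fewer, the grey bands span percentiles of all genes with at least 100 counts, and dotted lines mark 2-fold. ATF3 (0.72) and JUN (0.70) lie right of the inner band, FOSL1 (-0.56) and JUNB (-0.63) left of it, and JUND at 0.00.

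Ratios between members within a library need no scaling, and for most pairs of the 5 measured genes they differed between the libraries. JUN had 1.86 counts per JUNB count in the SMC1A library and 0.742 in the control library, a 2.51-fold difference (2.16 to 2.93). JUN counts per FOSL1 count were 1.72 and 0.719 (2.39-fold, 2.06 to 2.78), and JUN counts per JUND count were 0.842 and 0.520 (1.62-fold, 1.42 to 1.85). JUND counts per JUNB count were 2.21 and 1.43 (1.55-fold, 1.35 to 1.78). Of the 10 pairs compared, the intervals of 8 left out equality. The 2 that held it were JUN with ATF3 (0.977-fold, 0.680 to 1.39) and FOSL1 with JUNB (1.05-fold, 0.899 to 1.23). These intervals do not show that either pair moved alike. The 10 pairs reuse the same 5 genes, and no share was computed for pairs of other genes. The 8 can therefore not be set against a background. For single genes with at least 100 counts, intervals that left out no change were common (29.4% above it and 38.7% below).

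The make-up of the JUN family differed more than its sum. Summed over JUN, JUNB and JUND there were 2675 counts in the SMC1A library and 2575 in the control library, a log2 ratio of 0.05 (-0.03 to 0.13), or 0.18 by library totals. Levels of different genes were compared per kilobase of exon (CPM per kb, union of exons in GENCODE release 29). On that scale the family summed to 67.6 CPM per kb in the SMC1A library and 70.6 in the control library. JUN made up 23.3% of the family in the SMC1A library and 13.7% in the control library. JUNB made up 24.3% and 36.0%, and JUND 52.5% and 50.2%. The small difference for JUND turned to the other side when shares of plain counts were used (43.6% and 45.0%). The FOS genes summed to 656 counts in the SMC1A library and 930 in the control library, a log2 ratio of -0.51 (-0.66 to -0.37). FOSL1 made up 94.2% of their level per kb in the SMC1A library and 95.9% in the control library, so the family sum follows FOSL1. All 9 genes together summed to 3429 and 3563 counts. Their log2 ratio was -0.06 (-0.13 to 0.01), or 0.07 by library totals, which is a change of sign.

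**Figure D3:**
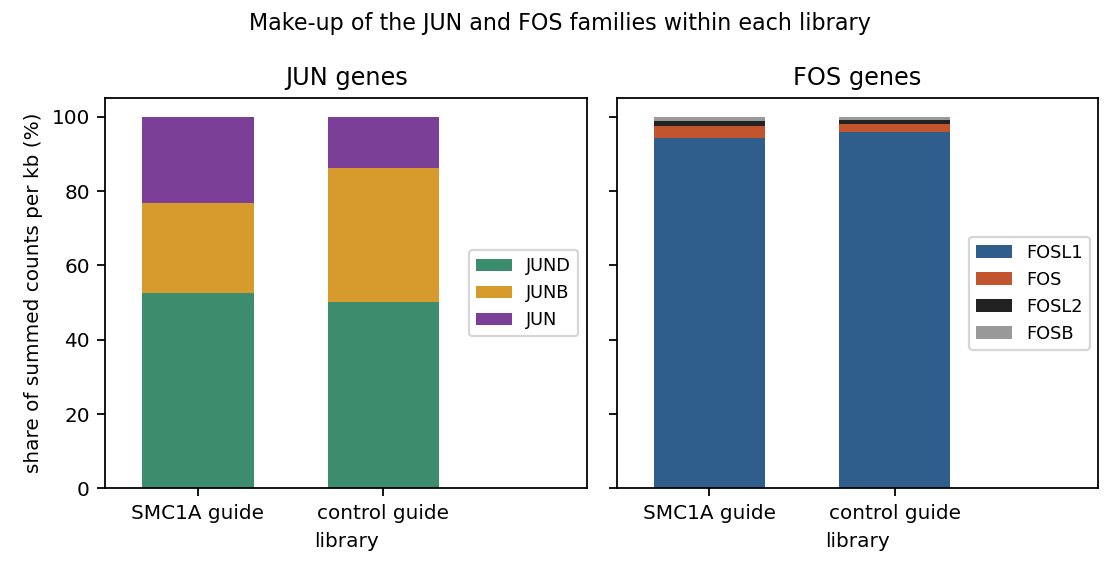
Share of each gene in the summed counts per kb of the JUN genes (left panel) and the FOS genes (right panel), within the SMC1A library and the control library. JUN takes 23.3% against 13.7% and JUNB 24.3% against 36.0%, while FOSL1 takes over 94% of the FOS genes in both.

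The libraries also differed in which levels per kb were resolved from each other, while no resolved order was reversed. In the SMC1A library JUND stood first at 35.5 CPM per kb (33.5 to 37.6), followed by FOSL1 at 17.2 (15.8 to 18.6), JUNB at 16.4 (15.0 to 17.9) and JUN at 15.7 (14.8 to 16.7). The intervals of these last 3 overlap, so their order was not resolved. In the control library JUND again stood first at 35.5 (33.4 to 37.6), with JUNB at 25.5 (23.7 to 27.3) and FOSL1 at 25.3 (23.7 to 27.1) not resolved from each other. JUN lay apart below them at 9.71 (8.95 to 10.5). Far below came ATF3, at 1.33 CPM per kb (1.08 to 1.63) with the SMC1A guide and 0.804 (0.609 to 1.04) with the control guide. FOS was at 0.630 (0.442 to 0.873) and 0.546 (0.371 to 0.775), so its interval met that of ATF3 in the control library and not in the SMC1A library. FOSL2 was at 0.238 and 0.311 CPM per kb and FOSB at 0.194 and 0.216, not resolved from each other in either library. BATF3 was at 0.0627 (0.0129 to 0.183) and 0.0210 (0.000532 to 0.117), below the intervals of the other genes in the control library and not resolved from FOSB and FOSL2 in the SMC1A library.

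The genes around the members were examined because cohesin shapes the contacts of neighbouring genes. Within 250 kb of the 9 members lay 80 other genes with at least 100 counts, of which 2 were higher by 2-fold or more and 0 lower by as much. The shares over all genes were 5.12% and 2.31%. The neighbours' share of higher genes was thus not above that of all genes. Their median log2 ratio was 0.01. Both higher genes lay near FOSB. EXOC3L2, 222.6 kb upstream of it, had 1350 counts in the SMC1A library and 622 in the control library (log2 ratio 1.11), and the incretin receptor gene GIPR, 193.1 kb downstream, had 216 and 72 (1.56). ERCC1, a DNA repair gene that overlaps FOSB on the opposite strand without shared exonic bases, had 1027 and 519 counts (0.98). ERCC1 was chosen after its value was seen, as were the neighbours named from here on.

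JUN has few measured neighbours. MYSM1, 80.7 kb downstream, was at a log2 ratio of -0.20 and OMA1, 234.0 kb downstream, at -0.11, so neither was higher along with JUN. The noncoding gene LINC01135 starts 0.80 kb upstream of JUN on the opposite strand, and it had 22 counts in the SMC1A library and 4 in the control library. Its log2 ratio of 2.20 had an interval from 0.89 to 4.45, on too few counts for the sorting by fold. Around JUNB, 24 measured neighbours ran from GCDH at -0.84 to the lysosomal enzyme gene MAN2B1 at 0.81, with a median of 0.03. The nearest that does not overlap JUNB, PRDX2, 3.50 kb downstream, was at 0.06. Around FOSL1, CCDC85B, 0.41 kb downstream, was at -0.53 and FIBP, 3.51 kb downstream, at 0.28, and 16 neighbours had a median of -0.15. Around JUND, the nearest, LSM4, was at 0.05 and 10 neighbours had a median of 0.11.

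Members on a shared chromosome were looked at side by side. ATF3 and BATF3 lie 65.6 kb apart on chromosome 1. Within 250 kb of ATF3, 7 measured neighbours ran from PACC1 at -0.66 to FLVCR1-DT at 0.58, with a median of 0.25. Among them NSL1 and TATDN3 were at 0.25 and 0.31. On chromosome 14, FOS lies near 2 further bZIP genes. JDP2, 145.5 kb away, had 19 counts in the SMC1A library and 40 in the control library (log2 ratio -1.04, interval -1.95 to -0.26). BATF, 240.2 kb away, had 31 and 54 counts (-0.79, interval -1.49 to -0.14). On the other side of FOS, TMED10, 102.1 kb away, was at 0.71 and NEK9, 151.4 kb away, at 0.46.

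**Figure D4:**
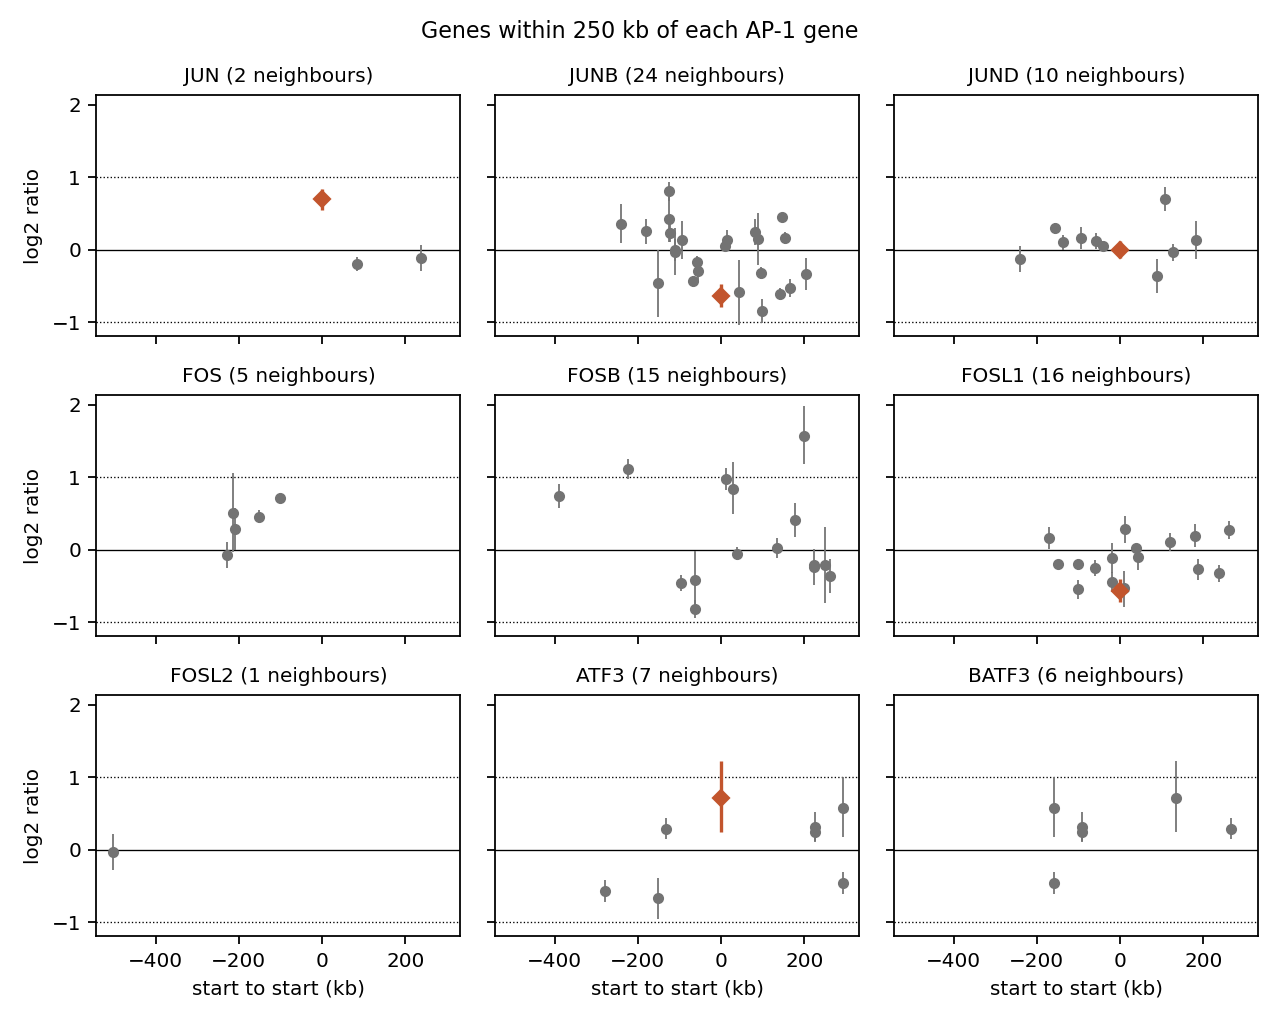
Log2 ratio of genes with at least 100 counts within 250 kb of each AP-1 gene, by distance between gene starts in kb along the strand of the AP-1 gene (negative is upstream). Red diamonds are AP-1 genes with at least 100 counts, grey points neighbours, bars exact 95% counting intervals, and dotted lines 2-fold. Past 2-fold lie 2 neighbours, EXOC3L2 and GIPR, both in the FOSB panel.

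The close dimer partners of AP-1 were ATF2, ATF7, BATF, BATF2 and JDP2. ATF2, which pairs with c-Jun on the cyclic AMP response element, had 871 counts in the SMC1A library and 765 in the control library (log2 ratio 0.18, interval 0.04 to 0.32). ATF7, its close relative, had 776 and 858 counts (-0.15, interval -0.29 to -0.01). BATF2 was 2.82-fold higher, with 105 and 37 counts (1.47, interval 0.94 to 2.08). Of the 3 partners with at least 100 counts, BATF2 alone passed 2-fold, beside 5.12% of all genes that were as much higher. BATF and JDP2, both of which restrain AP-1, are given above and were lower on few counts.

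Other bZIP proteins compete for sites like those of AP-1. In erythroid cells NFE2, paired with a small MAF protein, binds an extended form of the TPA response element in the globin locus control region, and BACH1 represses through the same element. NFE2 had 1768 counts in the SMC1A library and 2923 in the control library (100.2 and 166.6 CPM, log2 ratio -0.73, interval -0.82 to -0.65). BACH1 had 1731 and 1298 counts (0.41, interval 0.30 to 0.51), NFE2L1 was at 0.33 and BACH2 at -1.04. Past 2-fold, 0 of the 9 measured genes of this group were higher and 1, BACH2, was lower, with a median of -0.36. For all genes, here and for the next group, the shares were 5.12% higher and 2.31% lower. Among the CREB, ATF4 and C/EBP genes, 1 of 11 was higher past 2-fold and 0 were lower, with a median of -0.49. The higher gene was CREM, which encodes activating and repressing isoforms, at 46.6 and 18.0 CPM (log2 ratio 1.37). CREB1 was at 0.09, CEBPB at -0.78 and ATF4 at -0.80.

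Few genes that act upstream of AP-1 passed 2-fold, which is also true of all genes (5.12% higher and 2.31% lower). Of 22 measured MAP kinase genes of all tiers, 0 passed 2-fold on the higher side and 1 on the lower. Their median was -0.03, or 0.10 by library totals. The lower gene was MAP3K5, which encodes the stress kinase ASK1, with 175 counts in the SMC1A library and 357 in the control library (log2 ratio -1.03). MAPK8, which encodes the c-Jun kinase JNK1, was at -0.43 (34.8 and 46.8 CPM), MAP2K3 at 0.40 and MAP3K11 at 0.49. Among serum response factor, its cofactors and associated kinases, 1 of 10 passed 2-fold as higher and 0 as lower, with a median of 0.04. ELK3, a ternary complex factor that represses FOS in its unphosphorylated state, had 176 counts in the SMC1A library and 44 in the control library, 3.98-fold more (log2 ratio 1.97, interval 1.51 to 2.50). ELK1, the activating family member, was at -0.61 (41.9 and 63.8 CPM), MRTFB at 0.26 and RPS6KA1 at -0.39.

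The MAP kinase phosphatase genes, which end MAP kinase signals, lay on both sides. Past 2-fold, 1 of 5 measured was higher and 2 were lower, beside 5.12% and 2.31% of all genes. DUSP5 had 137 counts in the SMC1A library and 61 in the control library (log2 ratio 1.15) and DUSP16 had 368 and 189 (0.95). DUSP7 had 154 and 342 counts (-1.15), and DUSP10, which acts on JNK and p38, had 31 and 81 (-1.36, interval -2.04 to -0.78).

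Other immediate early genes lay on both sides of their control level. Past 2-fold, 2 of 17 measured were higher (BTG2 at 1.56 and NR4A2 at 1.41) and 2 lower (MYC at -1.47 and IER3 at -1.76), with a median of 0.23. The shares of all genes were 5.12% higher and 2.31% lower. Genes that control AP-1 protein turnover or act as cofactors showed 0 of 13 past 2-fold in either direction, with a median of -0.09, or 0.04 by library totals. The kinase gene GSK3B was at 0.34, DET1 at 0.22, the ubiquitin ligase gene CUL4A at -0.53 and the pseudokinase gene TRIB2 at -0.92. Genes of the decay of AU-rich mRNAs, the class that FOS mRNA belongs to, also showed 0 of 12 past 2-fold, with a median of -0.22. The decapping enzyme gene DCP2 was at 0.65, XRN1 at 0.44, KHSRP at -0.33 and CNOT7 at -0.43.

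Of 32 genes listed as known AP-1 targets, 11 had at least 100 counts. Of these, 3 were higher past 2-fold and 0 lower, beside 5.12% and 2.31% of all genes, and the median was 0.23. PLAU, which encodes the urokinase protease and has AP-1 sites in its enhancer, had 122 counts in the SMC1A library and 29 in the control library (4.19-fold more, log2 ratio 2.03, interval 1.47 to 2.70). CDKN1A, which c-Jun can repress, was at 22.3 and 6.50 CPM (1.77). The intermediate filament gene VIM, chosen after its value was seen, was at 628.1 and 288.3 CPM (1.12). At the other end EZR was at -0.34 and ODC1, the first enzyme of polyamine synthesis, at 494.4 and 784.9 CPM (-0.67). Of the other 21 genes, 7 had no count in either library, and MMP3, MMP12, MMP13, HMOX1 and GJA1, named after their counts were seen, were among them.

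**Figure D5:**
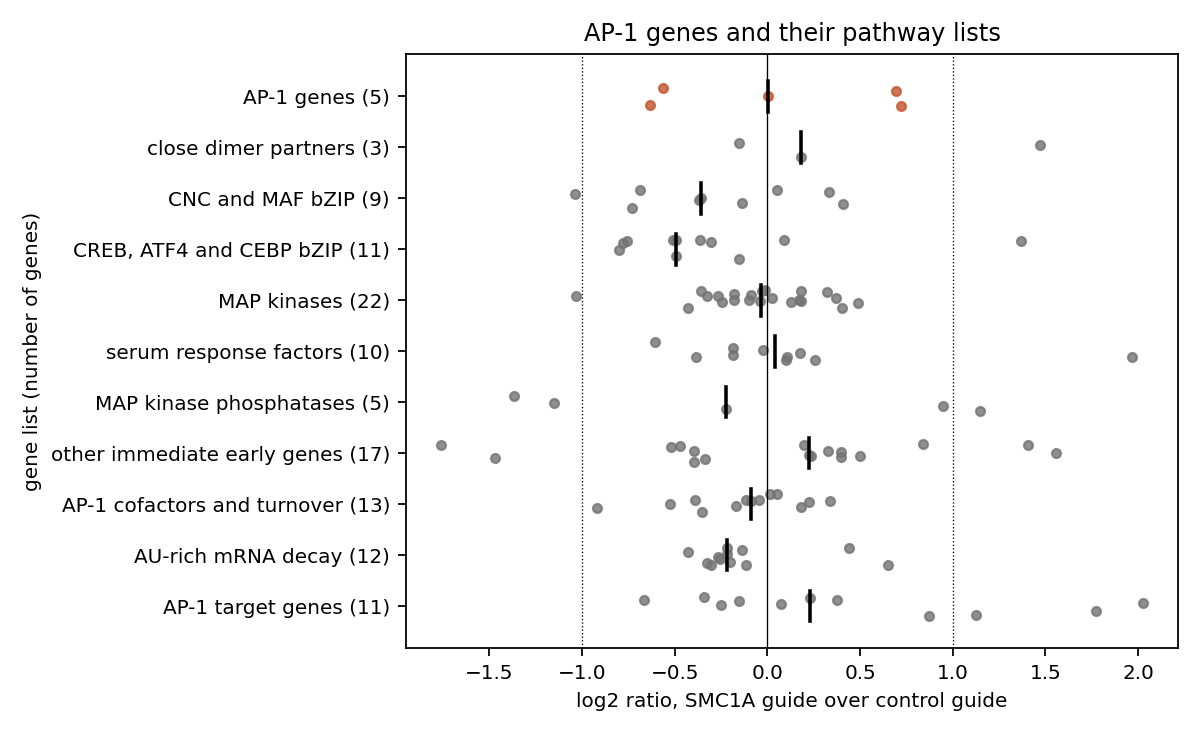
Log2 ratio of each gene with at least 100 counts in the AP-1 genes (top row, red) and in 10 lists of partners, upstream factors, feedback genes and targets. Vertical bars are medians, dotted lines mark 2-fold, and numbers in brackets count the genes. The 5 AP-1 genes lie between -0.63 and 0.72, and the list medians between -0.49 and 0.23.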

How the data were processed

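RNA was poly(A)-selected and sequenced as read pairs of 100 bases. The authors deposited estimated counts per gene, rounded to whole numbers and not scaled between libraries. The submitters' processing notes list Salmon 1.10.1, STAR 2.7.10a, DESeq2 1.42.1 and build GRCh38 without their roles, and no annotation is named in them. The authors' estimated counts had a total of 16864207 (SMC1A guide) and 18349209 (control guide).

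All 62700 gene identifiers matched the gene-name table, and 2 reporter rows stayed in library sizes only. Library sizes were scaled with TMM (edgeR 4.0.16, R 4.3.3). Log2 ratios used edgeR's formula with a prior count of 1, and genes were sorted by fold on these ratios. Printed folds and intervals used counts without a prior, so at low counts a fold and its log2 ratio differ somewhat. Intervals are exact (Clopper-Pearson for ratios and shares, Poisson for levels, conditional for pairs), at 95%, from scipy 1.17.1. Reads are not independent molecules, so intervals and floors (3 counts) cover counting error only. Positions and exon lengths came from GENCODE release 29 (GRCh38), which held 98.0% of genes with at least 100 counts, and promoters from RefSeq (GRCh38.p14).

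The members and lists were chosen with earlier results of these data known. Named were all members, all close partners, the 2 highest and 2 lowest genes of each other list with at least 100 counts, and neighbours past 2-fold. Motifs were chosen after values were seen. Alternatives were upper quartile scaling, DESeq2 1.42.0 size factors and library totals, prior counts of 0.25 and 5, other count minimums and fold limits, other lengths and windows. The calculation was tested on simulated data.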

Additional observations from a re-analysis of the deposited data

How the results depend on the processing

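Each guide had 1 library, so leaving out a replicate was not possible. No paired analysis was possible because each group holds a single library and no test was made. Removing the trend with expression level was chosen after seeing the data.

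With all 3 other scalings, both prior counts and the trend removed, the counts of AP-1 genes past 2-fold stayed at 0 higher and 0 lower, and they were also 0 with other count minimums and with whole intervals past 2-fold. With the 1.5-fold limit they were 2 higher and 1 lower. Over these 6 settings JUN ranged from 0.69 to 0.82, ATF3 from 0.50 to 0.85, FOSL1 from -0.56 to -0.43 and JUNB from -0.63 to -0.50. JUNB at -0.50 by library totals, and ATF3 at 0.50 with the trend removed, no longer passed 1.5-fold. FOS turned to -0.07 with the trend removed. BATF3, on 3 and 1 counts, enters only where no minimum is set. Its log2 ratio was 0.995 on the TMM scale, 0.41 with a prior count of 5 and 1.37 with a prior count of 0.25. It depends on the prior count and is not read as a fold. JUND and the median of the members were at 0.13 by library totals, and the median was -0.28 with at least 500 counts, where ATF3 drops out. The JUN share difference was 9.51 percentage points per kb and 13.3 in plain counts, and the JUND difference 2.26 and -1.42.

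In the pathway lists 9 genes were higher and 6 lower past 2-fold. With at least 20 counts these were 14 and 10, with at least 500 they were 4 and 3, and with no minimum 22 and 12. With the 1.5-fold limit they were 13 and 14, with whole intervals past 2-fold 6 and 2, and by library totals 11 and 4. The number of genes tested with at least 100 counts is given above for each list. It changes with the minimum, and no share over the lists together was computed. These counts are thus not read as a difference from all genes. Among the 11319 genes with at least 100 counts, 579 were higher (5.12%) and 262 lower (2.31%). The all-gene counts were 1361 and 517 with at least 20, 199 and 139 with at least 500, and 3800 and 2713 with no minimum. Shares at these other minimums were not computed. With the 1.5-fold limit all genes gave 1375 and 1025 (12.1% and 9.06%), with whole intervals 343 and 142, and by library totals 766 and 194. Neighbours past 2-fold were 0 higher of 34 within 100 kb, and 4 higher and 1 lower of 142 within 500 kb. The shares of all genes were 5.12% and 2.31%.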

Other observations

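Several genes of the target and feedback lists had too few counts for the sorting by fold and are given here as values, all chosen after they were seen. Among known AP-1 targets, the cytokine gene IL6 had 6 counts in the SMC1A library and 70 in the control library (log2 ratio -3.35, interval -5.05 to -2.36). The cyclin D1 gene CCND1 had 5 and 48 counts (-3.04, interval -4.96 to -1.95), and the hyaluronan receptor gene CD44 had 5 and 42 (-2.85, interval -4.77 to -1.74). On the other side, the chemokine gene CXCL8 had 76 and 18 counts (2.01, interval 1.31 to 2.90) and the collagenase gene MMP1 had 36 and 12 (2.98-fold more, log2 interval 0.60 to 2.66). These 5 genes lay in both directions. Chosen that way and on few counts, they do not measure how far targets differed beside the AP-1 genes.

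Among phosphatase genes, DUSP8 had 79 counts in the SMC1A library and 18 in the control library (2.07, interval 1.37 to 2.95) and DUSP4 had 46 and 12 (1.85, interval 0.99 to 2.98). The kinase gene SIK1, an immediate early gene, had 10 and 0 counts.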
